A study of Mus musculus with 4 samples.

Results

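The Elavl, Nova, Rbfox and Ptbp genes encode RNA-binding proteins that set the splicing and stability of messages in neurons. The 10 described here, Elavl2, Elavl3, Elavl4, Nova1, Nova2, Rbfox1, Rbfox2, Rbfox3, Ptbp1 and Ptbp2, were chosen by symbol as genes that mark neuronal maturation, out of 34968 gene symbols listed for all 4 libraries of the study. All 10 were listed in every library, and all 10 passed the filter on low values that left 12975 genes for testing. The libraries are bulk RNA-seq of tdTomato+ neurons, sorted at day 12 from differentiating mouse embryoid bodies. Both lines derive from one Dlx6-Cre; Ai9 parental ES line of C57/BL6 background, in which Cre activity in subpallial neuronal lineages switches on tdTomato. Both were treated with XAV-939 and SAG and carry Nestin-Nkx2-1-IRES-tTA2S together with a TRE cassette. That cassette holds Dlx2 in the N/D line and Dlx2 with V5-tagged St18 in the N/D/S line. The lines were expanded from drug-selected clones, and how many clones stand behind the libraries is not given in the sources used here, so a difference between the lines cannot be told apart from a difference between clones. N/D and N/D/S each gave 2 libraries, replicate 1 and replicate 2. Nothing in the labels says whether these came from separate differentiations, so p-values rest on the spread between libraries, which may be technical. The linear model used for testing, limma, draws each gene's spread towards a value shared by all tested genes. Its standard errors, intervals and p-values therefore do not measure the spread of 1 gene alone. Values are TPM, a transcript abundance that the authors scaled to transcript length and library total, which allows levels of different genes to be set side by side but keeps no read count, so the depth is unknown.

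Elavl2, Elavl3 and Elavl4 are the neuronal Hu proteins. They bind U-rich and AU-rich stretches, stabilise messages and alter splicing, and appear as progenitors leave the cell cycle. Nova1 and Nova2 bind clusters of short pyrimidine-flanked CA motifs and regulate exons of synaptic genes. Rbfox1, Rbfox2 and Rbfox3 include or skip exons depending on which side of the exon they bind, and Rbfox3 is the NeuN antigen of mature neurons. Ptbp1, the polypyrimidine tract-binding protein of progenitors and non-neural cells, represses neuronal exons. One of its targets is an exon of its own paralog Ptbp2, and when Ptbp1 falls during neurogenesis Ptbp2 protein is made in its place.

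That switch rests on a small exon that both Ptbp genes contain, shown here because skipping it shifts the reading frame. In GENCODE M21 on GRCm38 the Ptbp1 exon lies at chr10:79862014-79862047 on the plus strand and the Ptbp2 exon at chr3:119724612-119724645 on the minus strand. Both are coding exons of 34 bases, 5′ to 3′ as follows, with the bases that differ between the paralogs in capitals.
Ptbp1: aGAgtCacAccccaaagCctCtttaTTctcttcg
Ptbp2: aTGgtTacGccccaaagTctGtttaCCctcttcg
The exons were identical at 26 of 34 positions. In Ptbp2 the exon was number 10 of 14 in a coding transcript, and 2 annotated transcripts of each gene skipped it, all of them classed as subject to nonsense-mediated decay. The deposited tables hold 1 value per gene symbol, so inclusion of these exons was not measured, and Ptbp2 TPM does not tell the included from the skipped form.

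How far a read-assignment tool can separate paralogs depends on the sequence they share. Coding sequences within a family were 67.5% identical (Rbfox2 with Rbfox3) to 77.9% identical (Elavl3 with Elavl4) over aligned bases, and no pair within a family shared a run of 31 bases, the default k-mer length of kallisto. The 2 longest shared runs are shown, since they are the closest any pair came to that length, each of 29 bases.
Elavl3 and Elavl4: ttcggcttcgtcaccatgaccaactacga
Rbfox1 and Rbfox2: accgtggtagagggccgtaaaatcgaggt
Sharing with other genes was larger for Ptbp1 and Nova2. Of the distinct 31-mers of Ptbp1, 27.5% also occurred in transcripts of other annotated genes. Among these were the processed pseudogene Gm4900 (11.1%), which was listed at 0 TPM in all 4 libraries, and Plppr3 (3.35%), which overlaps Ptbp1 on the opposite strand and had 299 to 455 TPM. For Nova2 the share was 31.01%, nearly all with Gm26821 on the opposite strand, which was not among the 34968 symbols listed for all 4 libraries. For the other 8 genes the share was at most 3.89%. Whether the authors' index held each of these transcripts, and whether strand was used, is not given in the sources used here, so Ptbp1 and Nova2 are the less certain values of the set.

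The libraries did not sort cleanly by line, and this touches every value that follows. The library labelled N/D replicate 1 listed 13504 symbols above 0, against 17220 to 20878 in the others, and 613 of 6139 genes that reached 10 TPM in each other library were listed at 0 there. St18 was at 44.4 and 15.9 TPM across the N/D/S libraries, against 28.5 and 26.6 TPM in the N/D ones, in replicate order here and below, so it did not separate the lines and the direction of every difference rests on the labels. Of the other transgenes, which both lines carry, Nkx2-1 was at 39.6 and 18.3 TPM in N/D/S and at 16.5 and 48.6 TPM in N/D, and Dlx2 at 259 and 147.5 TPM in N/D/S and at 71.1 and 188 TPM in N/D. Summed TPM of 6 neuronal markers (Tubb3, Dcx, Map2, Stmn2, Snap25, Syt1) was 4673 and 3277 in the N/D/S libraries, against 4070 and 3001 in the N/D ones, with none at 0. Most of that sum was Tubb3. The other 5 were each lowest in N/D/S replicate 2 and summed to 1899 and 821 in the N/D/S libraries, against 2022 and 1492 in the N/D ones. Summed TPM of 8 progenitor markers was 504.9 and 704.0 in the N/D/S libraries, against 463.2 and 1213 in the N/D ones, with Hes5 and Mki67 at 0 in N/D replicate 1. Without Fabp7, the most abundant of them, N/D/S replicate 2 was the lowest instead, with sums of 326 and 198 in the N/D/S libraries, against 329.6 and 307 in the N/D ones. For 5 pluripotency markers the sums were 3.66 and 327 in the N/D/S libraries, against 0.247 and 193 in the N/D ones, with Pou5f1, Zfp42, Dppa5a and Utf1 at 0 in N/D replicate 1. For 7 markers of astrocytes and oligodendrocytes they were 17.8 and 70.5 in the N/D/S libraries, against 0 and 184 in the N/D ones, all 7 being at 0 in N/D replicate 1, Gfap and Aqp4 in N/D/S replicate 1 and Aqp4 in N/D/S replicate 2. The 5 GABAergic neuron markers analysed here summed to 958 and 372 TPM across the N/D/S libraries, against 488 and 833 TPM in the N/D ones, with none at 0. The 5 fibroblast and endothelial markers summed to 7.502 and 26.3 TPM across the N/D/S libraries, against 38.8 and 34.8 TPM in the N/D ones, with Dcn and Cdh5 at 0 in N/D/S replicate 1, Col3a1, Dcn and Cdh5 in N/D replicate 1 and Cdh5 in N/D replicate 2, and in N/D replicate 1 all but 0.035 TPM of the sum was Pecam1. In bulk RNA, fewer cells of a type and less RNA per cell cannot be told apart, and the part of these other cell types in the results below was not tested.

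Elavl4 (chr4:110203722-110351909, minus strand) was the most abundant of the neuronal Hu genes, and of all 10 genes, in every library. It had 422 and 103 TPM across the N/D/S libraries, against 427 and 312 TPM in the N/D ones, which placed it between percentiles 88.0 and 97.1 of the tested genes. N/D/S replicate 2 was low, while N/D/S replicate 1 lay between both N/D libraries. The log2 fold change (N/D/S over N/D), on the log2(TPM + 1) scale used throughout, which understates changes of low genes, was −0.80 (standard error 1.10, 95% interval −3.41 to 1.804), and it was 0.21 without N/D/S replicate 2. Elavl3 (chr9:22015005-22052023, minus strand) had 17.7 and 7.89 TPM across the N/D/S libraries, against 18.9 and 37.5 TPM in the N/D ones. Both N/D/S libraries were below both N/D libraries, with the replicate 1 libraries of the lines almost touching, and the log2 fold change was −1.10 (standard error 1.03), ranging from −1.64 to −0.57 as each library was left out. Elavl2 (chr4:91250763-91400785, minus strand), the family member that is also found outside the nervous system, had 41.1 and 13.2 TPM across the N/D/S libraries, against 2.54 and 33.6 TPM in the N/D ones. It varied more between libraries than Elavl3 or Elavl4, 16.2-fold from the lowest to the highest, with N/D replicate 1 lowest. Its log2 fold change was 1.15 (standard error 1.36), and it changed sign without that library, to −0.50.

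Nova1 (chr12:46694517-46818929, minus strand) had 38.7 and 7.64 TPM across the N/D/S libraries, against 21.1 and 17.7 TPM in the N/D ones. The N/D/S libraries lay on either side of the N/D libraries, and the log2 fold change was −0.14 (standard error 1.12), or 0.96 without N/D/S replicate 2. Nova2 (chr7:18925888-18965319, plus strand) was the steadiest of the 10 genes, with 6.84 and 5.94 TPM across the N/D/S libraries, against 4.70 and 7.40 TPM in the N/D ones, a 1.57-fold range. Its log2 fold change was 0.09 (standard error 0.97), turning to −0.19 without N/D replicate 1, to −0.083 with upper quartile scaling and −0.42 with quantile normalization. The residual standard deviation of Nova2 itself was only 0.29, so the spread shared over genes set most of its standard error. Nova1 made up 85.0% and 56.3% of the Nova total in N/D/S and 81.8% and 70.6% in N/D, so it was the larger of the pair in all 4 libraries.

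Rbfox3 (chr11:118489762-118911597, minus strand) had 42.8 and 12.3 TPM across the N/D/S libraries, against 43.4 and 47.2 TPM in the N/D ones. Again both N/D/S libraries were below both N/D libraries, although N/D/S replicate 1 missed N/D replicate 1 only narrowly, and the log2 fold change was −0.94 (standard error 1.06), or −0.078 when N/D/S replicate 2 was left out and −1.803 when replicate 1 of that line was. Rbfox1 (chr16:5885355-7411526, plus strand) had 69.0 and 9.06 TPM across the N/D/S libraries, against 75.2 and 15.2 TPM in the N/D ones. It followed replicate number rather than line, being high in both replicate 1 libraries and low in both replicate 2 libraries, and its log2 fold change was −0.40 (standard error 1.35), or 0.71 when N/D replicate 1 was left out and 1.00 when N/D/S replicate 2 was. Rbfox2 (chr15:77078990-77307004, minus strand), the most widely expressed of the family, had 80.2 and 8.36 TPM across the N/D/S libraries, against 16.9 and 41.5 TPM in the N/D ones. Here the N/D/S libraries held both the highest and the lowest value, and the log2 fold change was 0.00 (standard error 1.31, 95% interval −3.09 to 3.09). It ran from −1.56 to 1.56 as one or the other N/D/S library was left out. The leading Rbfox gene therefore differed between libraries: Rbfox2 with 41.8% of the family total in N/D/S replicate 1, Rbfox3 with 41.3% and 45.5% in the replicate 2 libraries of N/D/S and N/D, and Rbfox1 with 55.5% in N/D replicate 1.

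Ptbp1 (chr10:79854427-79864771, plus strand) had 34.7 and 31.5 TPM in N/D/S, was listed at 0 in N/D replicate 1 and had 37.4 TPM in N/D replicate 2. The other 3 libraries were close together, so the log2 fold change of 2.46 (standard error 1.70, unadjusted p = 0.191 from limma) rested on N/D replicate 1, and it was −0.18 without that library. Its size was set by the pseudocount added to the listed 0, being 2.94 with 0.5 TPM and 4.10 with 0.1 TPM. Without N/D replicate 2, where N/D replicate 1 stands alone for its line, it was 5.09 (limma, Benjamini-Hochberg adjusted p = 0.000382), and 18.3% of all tested genes were called in that fit. Ptbp1 was the 1 gene of the 10 listed at 0 in N/D replicate 1, as were 26.1% of all tested genes and 581 (15.0%) of the 3864 genes whose mean in the other libraries was within 2-fold of the 34.5 TPM of Ptbp1. Ptbp2 (chr3:119718742-119784466, minus strand) had 183 and 47.7 TPM across the N/D/S libraries, against 19.6 and 91.6 TPM in the N/D ones. The N/D values spanned the lower N/D/S value, with N/D replicate 1 lowest, and the log2 fold change was 1.12 (standard error 1.23). Leaving out N/D replicate 1 gave 0.032, leaving out N/D/S replicate 1 gave 0.16 and leaving out N/D replicate 2 gave 2.2. It was the second most abundant of the 10 genes in every library except N/D replicate 1, where Rbfox1 held that place. Ptbp3, the third paralog, which is found mainly outside the nervous system, was lower, at 7.75 and 2.89 TPM across the N/D/S libraries, against 0.162 and 4.27 TPM in the N/D ones. Rest, the repressor of neuronal genes in non-neuronal cells, had at most 2.15 TPM in any library.

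**Figure D1:**
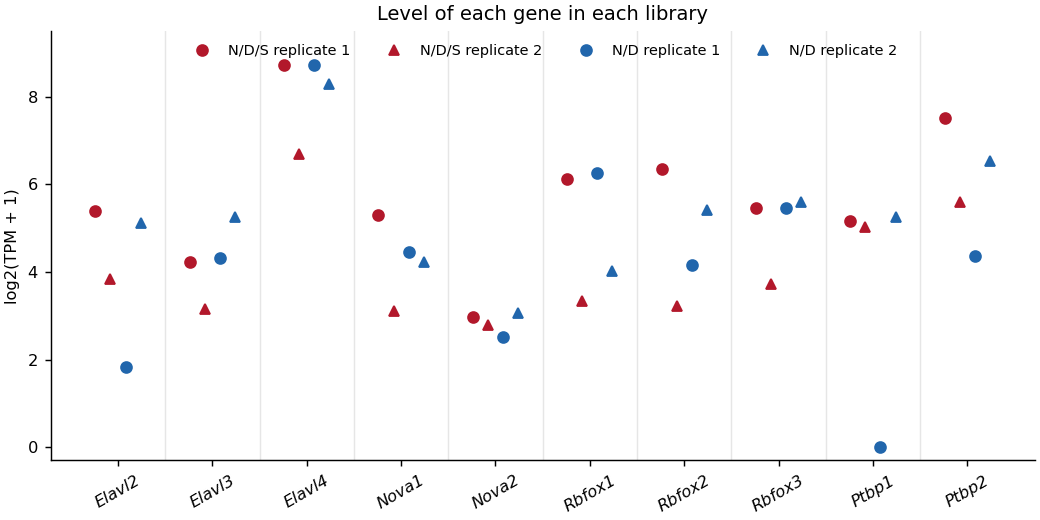
Level of each of the 10 genes as log2(TPM + 1) (y axis) in the 2 N/D/S libraries (red) and the 2 N/D libraries (blue), with circles for replicate 1 and triangles for replicate 2. Elavl4 is highest in all 4 libraries, Nova2 varies least, and Ptbp1 is at 0 in N/D replicate 1 while the other 3 libraries lie close together.

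In the test over all genes, 0 of the 10 genes differed between the lines in limma after Benjamini-Hochberg adjustment (threshold 0.05), as did 0% of the 12975 genes tested. At an unadjusted p under 0.05 there were also 0 of the 10, against 0.0617% of all tested genes (3 higher and 5 lower). That background count moved with the settings, to 419 and 67 with upper quartile scaling and to 202 and 22 when the prior variance followed the mean level. The lowest unadjusted p among them was 0.191, for Ptbp1, and every adjusted p was 1 after rounding. Of the 10 log2 fold changes 4 were above 0 and 6 below, with a median of −0.07, while the median of all tested genes was 0.26 and 61.4% were above 0. The median of all genes itself rested on single libraries, being −0.29 when N/D replicate 1 was left out, 0.02 when N/D/S replicate 1 was, 0.57 when N/D/S replicate 2 was and 0.88 when N/D replicate 2 was. In 2 of the 10 (Elavl3 and Rbfox3) both N/D/S libraries lay below both N/D libraries, as in 8.23% of all tested genes. In 0 of the 10 they lay above, against 8.69% of all. The residual standard deviation between libraries of a line was 0.29 to 2.63 on the log2 scale for the 10 genes, with a median of 1.03 over all genes. Intervals as wide as those of Elavl4 or Rbfox2 leave room for a several-fold change in either direction.

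**Figure D2:**
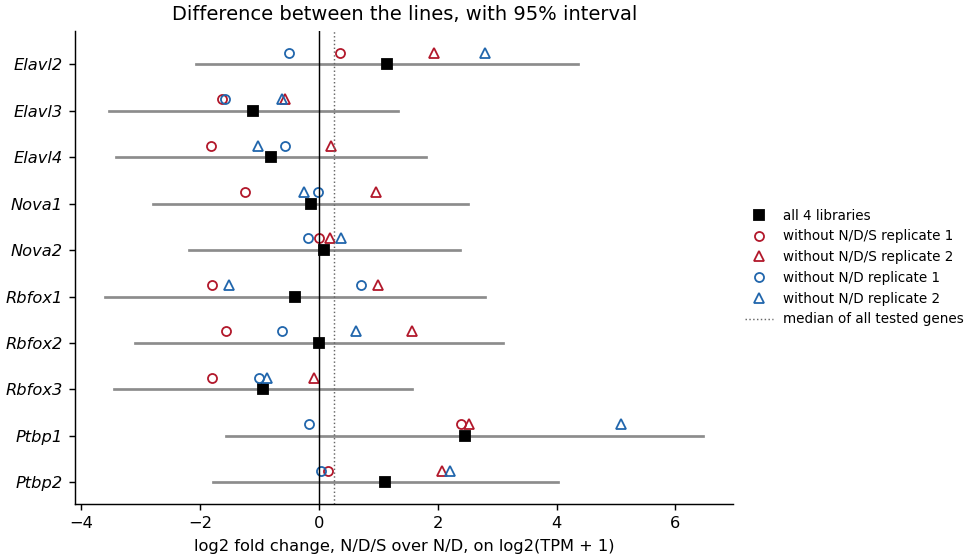
Log2 fold change for each gene (x axis, N/D/S over N/D), with all 4 libraries (black squares, grey lines the 95% interval from limma) and with each library left out in turn (open symbols). All 10 intervals cross 0, the dotted line marks the median of all tested genes at 0.26, and Ptbp1 moves from 2.46 to −0.18 without N/D replicate 1.

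The labels do not say that a replicate number marks a shared culture or day, and values within a number are given as a description. The tables of the replicate 1 libraries each listed 35197 symbols and those of the replicate 2 libraries 35204. The sums above for pluripotency markers and for astrocytes and oligodendrocytes were higher in both replicate 2 libraries. So was the progenitor sum, though not without Fabp7, and the fibroblast and endothelial sum, though only without Pecam1. The neuronal sum was lower in both. In replicate 1, 6 of the 10 genes were higher in N/D/S, as were 72.5% of all tested genes. In replicate 2, all 10 were lower in N/D/S, as were 74.7% of all. On the log2 scale the replicate 2 differences ran from −2.18 for Rbfox2 and −2.11 for Elavl3 to −0.28 for Nova2 and −0.24 for Ptbp1. In replicate 1, Ptbp1 (5.16, against the listed 0 and so set by the pseudocount), Elavl2 (3.57), Ptbp2 (3.16) and Rbfox2 (2.18) were higher in N/D/S by more than 2 log2 units, and Nova1 (0.84) and Nova2 (0.46) by less. Elavl3, Elavl4, Rbfox1 and Rbfox3 differed there by −0.12 to −0.02. N/D/S replicate 2 had the lowest value for 6 genes, Elavl3, Elavl4, Nova1, Rbfox1, Rbfox2 and Rbfox3, and it was lowest for 29.2% of all tested genes and for 5 of the 6 neuronal markers. N/D replicate 1 had the lowest value for Elavl2, Nova2, Ptbp1 and Ptbp2, and it was lowest for 56.3% of all. Summed over the 10 genes, TPM was 936 and 247 in the N/D/S libraries, against 629 and 641 in the N/D ones.

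Ratios of TPM within a library do not depend on scaling between libraries and were used to ask whether the balance of paralogs differed between the lines. Ptbp2 exceeded Ptbp1 by 5.29-fold and 1.52-fold in N/D/S and by 2.45-fold in N/D replicate 2. No fold is given for N/D replicate 1, where Ptbp1 was listed at 0, as were many genes abundant in the other libraries. The log2 ratio of (TPM + 1) was 1.48 ± 1.26 (SD, n = 2) in N/D/S and 2.82 ± 2.19 (SD, n = 2) in N/D, and the lines overlapped (two-sided exact permutation p = 0.667). The value of N/D replicate 1 in this ratio was set by the pseudocount, and the difference of −1.34 became −1.82 with 0.5 TPM, −2.96 with 0.1 TPM and 0.21 without that library. The sum of Elavl2, Elavl3 and Elavl4 exceeded Elavl1, the ubiquitous HuR gene, by 4.53-fold and 3.02-fold in N/D/S and by 23.9-fold and 6.09-fold in N/D. Elavl1 itself had 106 and 41.1 TPM across the N/D/S libraries, against 18.7 and 62.9 TPM in the N/D ones. This ratio was lower in both N/D/S libraries than in both N/D libraries, with means of 1.87 ± 0.42 and 3.55 ± 1.36 (SD, n = 2 each), a difference of −1.68 on the log2 scale. Its exact permutation p of 0.33, two-sided, is the smallest that 2 against 2 libraries can give, and the difference was −0.72 when N/D replicate 1 was left out and −2.64 when N/D replicate 2 was. The log2 ratio of Nova1 to Nova2 was 1.33 ± 1.43 in N/D/S and 1.56 ± 0.56 in N/D (SD, n = 2 each, two-sided exact permutation p = 1). Its difference of −0.23 turned to 0.17 when N/D replicate 1 was left out and to 0.78 when N/D/S replicate 2 was. With p-values adjusted over these 3 ratios by the Benjamini-Hochberg method, each exact permutation p was 1.

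**Figure D3:**
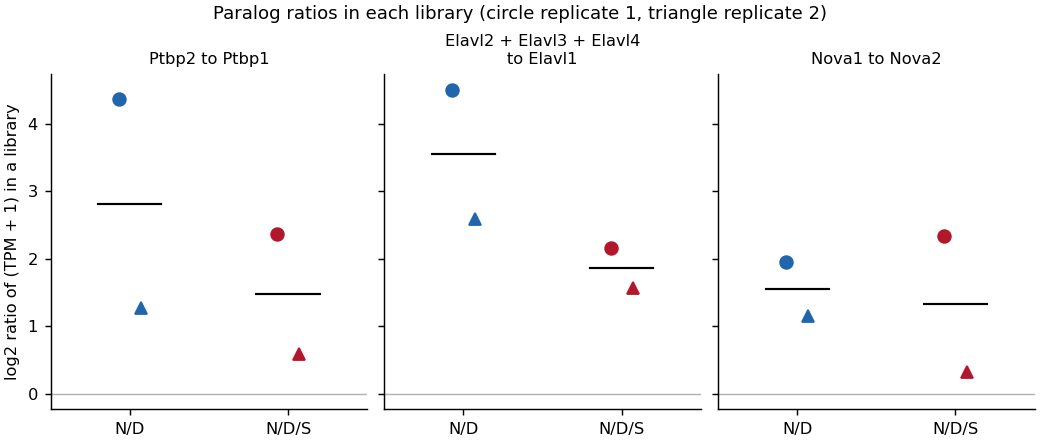
Log2 ratio of (TPM + 1) between paralogs in each library (y axis), for the 2 N/D (blue) and 2 N/D/S (red) libraries, with circles for replicate 1, triangles for replicate 2 and bars for the mean. The Ptbp2 to Ptbp1 point of N/D replicate 1 (4.37) is set by the pseudocount on a Ptbp1 listed at 0, N/D replicate 1 is highest for the neuronal Elavl genes to Elavl1 (4.51), and only the Elavl ratio shows no overlap between the lines.

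**Figure D4:**
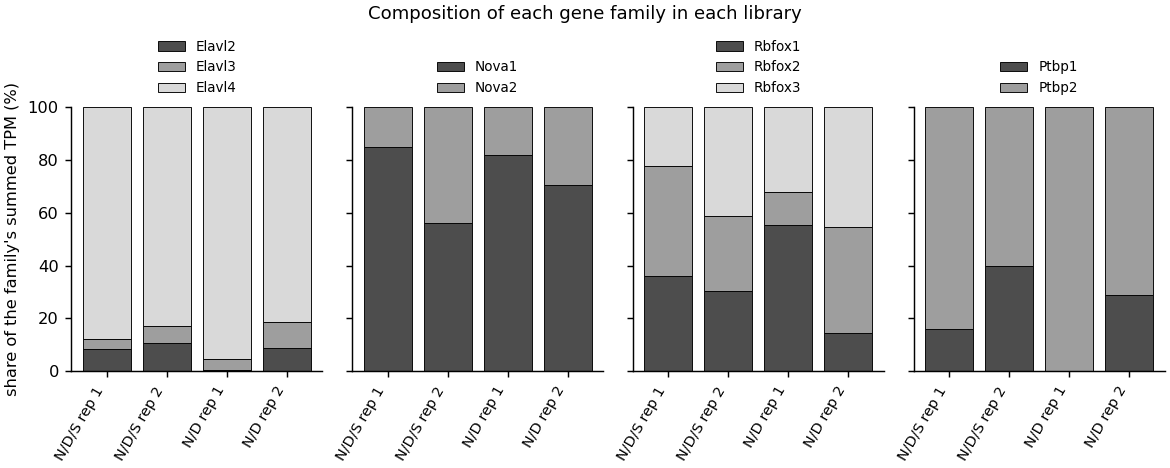
Share of each family's summed TPM (y axis, percent) taken by each gene in each library, for the Elavl2 to Elavl4, Nova, Rbfox and Ptbp1 to Ptbp2 families. Elavl4 takes 81.4% to 95.2% of its family in all 4 libraries, whereas the leading Rbfox gene changes from library to library.

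Other RNA-binding proteins were compared by lists. Of 19 other regulators of neuronal splicing 18 were tested (all but Raver2), and 0 were higher and 0 lower past that threshold in limma, with 11 of 18 log2 fold changes above 0 and a median of 0.71, beside 61.4% and 0.26 over all tested genes, a median that moved with single libraries as given above. Abundant neuronal members included Celf3 (304 and 100 TPM in N/D/S, against 380 and 179 TPM in N/D), Celf4 (313 and 59.1 TPM in N/D/S, against 274 and 245 TPM in N/D) and Khdrbs3, the splicing factor SLM2 (377 and 95.1 TPM in N/D/S, against 193 and 254 TPM in N/D). These 3 were lowest in N/D/S replicate 2, like Elavl4. Celf5 (20.4 and 19.7 TPM in N/D/S, against 4.87 and 18.7 TPM in N/D) and Khdrbs2 (21.9 and 21.3 TPM in N/D/S, against 2.81 and 31.01 TPM in N/D) were instead lowest in N/D replicate 1, like Ptbp1. Srrm4 and Srrm3 promote inclusion of neuronal microexons. Srrm4 had 8.50 and 5.37 TPM across the N/D/S libraries, against 4.28 and 8.53 TPM in the N/D ones, and Srrm3 had 41.4 and 25.4 TPM across the N/D/S libraries, against 93.0 and 29.4 TPM in the N/D ones. The muscleblind genes, whose activity rises as tissues mature, were low, with 6.71 and 2.09 TPM of Mbnl1 in N/D/S, against 0.170 and 4.85 TPM in N/D. Mbnl2 had 8.09 and 2.99 TPM across the N/D/S libraries, against 0.0055 and 11.6 TPM in the N/D ones.

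Among 9 RNA-binding proteins of progenitor, stem and epithelial cells 7 were tested, again with 0 higher and 0 lower in limma, with 4 of 7 log2 fold changes above 0 (median 0.61), and the epithelial splicing factors Esrp1 and Esrp2 had at most 0.123 TPM in any library. Msi1, a progenitor translation regulator, had 4.82 and 3.94 TPM across the N/D/S libraries, against 1.504 and 3.93 TPM in the N/D ones, and Msi2 had 7.23 and 5.06 TPM across the N/D/S libraries, against 5.49 and 13.3 TPM in the N/D ones. Lin28a and Lin28b block maturation of let-7 microRNAs in early cells. Both were highest in N/D/S replicate 1, at 18.1 and 22.8 TPM, and 1.10 and 2.97 TPM in N/D/S replicate 2. In N/D, Lin28a was listed at 0 and had 3.90 TPM, and Lin28b was at 0.0030 and 9.22 TPM. For 13 genes of mRNA transport and translation, 11 SR proteins and 20 hnRNP proteins, all tested, 0 passed the adjusted threshold in either direction in limma, and 8, 4 and 5 log2 fold changes were above 0, with medians of 0.05, −0.22 and −0.33. Of the 3 genes listed as regulators of Ptbp1, only Rest was analysed here, at a log2 fold change of −0.11.

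**Figure D5:**
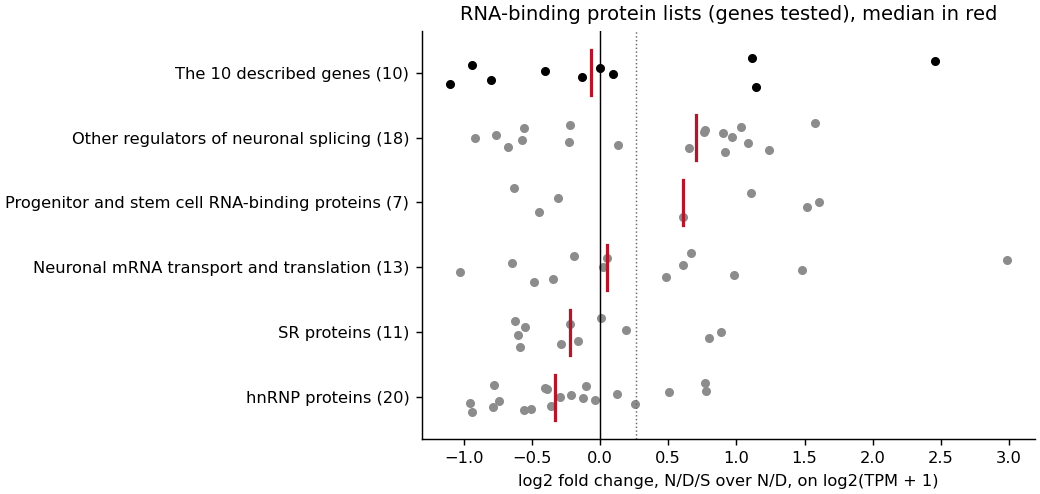
Log2 fold change (x axis, N/D/S over N/D) for each tested gene of the 10 described (black) and of 5 lists of other RNA-binding proteins (grey), with the list median in red and the median of all tested genes, 0.26, as a dotted line. The genes of each list lie on both sides of 0.

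The profiles of the 10 genes were matched to those of 80 genes, the 10 themselves and the tested genes of the lists, by the Euclidean distance between log2(TPM + 1) values over the 4 libraries, a measure that reads level as well as pattern. The closest pairs were Nova2 with Srrm4 (distance 0.37), Elavl3 with Hnrnpa0 (0.48) and Nova1 with Fmr1 (0.67).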

How the data were processed

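RNA from sorted tdTomato+ neurons with an RNA integrity score of at least 7 was enriched for poly-A, made into TruSeq libraries and sequenced on a NovaSeq by the authors. The deposited TPM values, 1 per gene symbol and library, came from kallisto 0.44.0 on GRCm38 with sleuth, as the submitters' processing notes name them. The transcriptome release and the step from transcripts to genes are not given in the sources used here. TPM keeps no depth, so no counting interval was computed.

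Genes that reached 1 TPM in 2 or more of the 4 libraries were tested on log2(TPM + 1) with limma 3.58.1 (R 4.3.3), N/D/S against N/D, without covariates, and p-values were adjusted over all tested genes by the Benjamini-Hochberg method. Ratios within a library were compared by two-sided exact permutation tests (scipy 1.17.1). The limma step was tested on simulated data with known changes. Passing was required only at a spread between libraries well below the median of 1.03 seen here. That test therefore does not show how many changes would be found in these data. Alternatives covered the pseudocount, the filter, scaling, the variance prior, the replicate block and leaving out each library. The 26 date-like symbols in each file were left out. Coding sequences were aligned with Biopython 1.88 on GENCODE M21. The rule for named genes took the 10 genes, 16 genes of the lists and the 3 closest profiles. Genes that overlap or resemble Ptbp1, the transgenes, single markers and the epithelial factors Esrp1 and Esrp2 were named outside it, after their values were seen. The members and lists were chosen with earlier results of these data known.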

Additional observations from a re-analysis of the deposited data

How the results depend on the processing

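Of 176 values computed for 15 results under the alternatives, 157 were classed as the same. For a log2 fold change this meant the same direction and side of the threshold. For a ratio it meant the same direction and a shift smaller than the pooled standard deviation, and for a count of called genes an unchanged count. The filter, the variance prior and the replicate block cannot move a log2 fold change in this design, which fixed 39 of the values for the 10 genes. The block cannot move the differences in ratio either. Under the 5 changes of pseudocount or scaling, 48 of 50 log2 fold changes of the 10 genes kept their direction, which for Rbfox2, at 0.00, carries no meaning, the exceptions being Nova2 with upper quartile scaling (−0.083) and quantile normalization (−0.42). The median of all tested genes moved from 0.26 to −0.05 with quantile normalization and to −0.15 with at least 1 TPM in every library, a filter under which Ptbp1 was not tested. At an unadjusted p under 0.05 limma gave 3 genes higher and 5 lower, against 419 and 67 with upper quartile scaling, 202 and 22 with the prior variance following the mean level, 25 and 30 with quantile normalization and 7 and 8 with median-of-ratios scaling. With a pseudocount of 0.1 TPM the log2 fold change of Ptbp1 rose from 2.46 to 4.10 and the difference in the Ptbp2 to Ptbp1 ratio went from −1.34 to −2.96. Letting the prior variance follow the mean level called 5 genes higher and 1 lower, none of them among the 10. With the replicate block 0 genes were called, 3 higher and 6 lower at an unadjusted p under 0.05 in limma. The replicate numbers were not treated as pairs, since no label ties a number to a shared culture and the deviations of the replicate 1 libraries correlated at r = 0.02, which does not exclude that a number marks something shared. The block changed no call of the 10 genes.

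As each library was left out, the median of all tested genes ranged from −0.29 to 0.88. Leaving out 1 library kept the direction in 31 of 40 values. The log2 fold changes ranged from −0.50 to 2.79 for Elavl2, −1.64 to −0.57 for Elavl3, −1.81 to 0.21 for Elavl4, −1.24 to 0.96 for Nova1, −0.19 to 0.37 for Nova2, −1.80 to 1.00 for Rbfox1, −1.56 to 1.56 for Rbfox2, −1.803 to −0.078 for Rbfox3, −0.18 to 5.09 for Ptbp1 and 0.032 to 2.2 for Ptbp2. The difference in log2 ratio ranged from −2.89 to 0.21 for Ptbp2 to Ptbp1, from −2.64 to −0.72 for the neuronal Elavl sum to Elavl1 and from −1.24 to 0.78 for Nova1 to Nova2. Genes called ranged from 0 to 2213 higher and from 0 to 160 lower, the highest counts being those without N/D replicate 2, where the remaining N/D library is assumed to vary like the N/D/S libraries. In that setting Ptbp1 was called (limma, Benjamini-Hochberg adjusted p = 0.000382). The cause of these changes was not tested. With 2 libraries per line the exact permutation tests cannot go below 0.33, and the depth behind each value is unknown.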
